A study of Mus musculus with 9 samples.

Results

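The genes described here are Bhlhe40 and Bhlhe41, which encode related basic helix-loop-helix transcriptional repressors, and 8 genes of the circadian clock, Per1, Per2, Cry1, Nr1d1, Nr1d2, Dbp, Arntl and Clock. They were taken by gene symbol from the per-library expression files, in which all 10 were present among 24346 genes. The list was chosen by symbol, but selected on the FPKM levels and group differences seen earlier in these same 9 libraries, so the levels and differences of these 10 genes are descriptions and carry no test.

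RNA was sequenced from B cells sorted from the spleens of wild-type C57BL6 mice. FO B (Young) denotes follicular B cells of 8-week-old mice, FO B (Aged) follicular B cells of 50-week-old mice, and ABCs (Aged) age-associated B cells of 50-week-old mice, with 3 libraries in each group. FO B cells were gated, among other markers, as B220hiCD43-CD23+CD21lo cells and ABCs as B220hiCD43-CD23-CD21loCD11b+CD11c+ cells, so the groups share the B220, CD43 and CD21 gates, differ in CD23, and only the ABCs were gated on CD11b and CD11c. None of these groups carried a transgene or received a treatment, no group of young ABCs was among them, and a mouse per library is what the study's legends imply although the labels do not say it. The time of day at which the spleens were taken is not given in the sources used here.

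The mammalian clock is a feedback loop of transcription. ARNTL (BMAL1) and CLOCK bind E-box sequences as a pair and switch on the Per, Cry, Nr1d and Dbp genes, and the PER and CRY proteins then block that pair, while the REV-ERB proteins made from Nr1d1 and Nr1d2 repress Arntl. BHLHE40 (DEC1) and BHLHE41 (DEC2) bind the same E-boxes and repress from them, and in lymphocytes they also have roles outside the clock, among them the development and self-renewal of B-1a cells.

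Sequences of the promoters bear on which of these genes carry an E-box near their start. RefSeq windows on GRCm38.p6, from 250 bases before to 50 bases after an annotated start, were given for 8 of the 10 genes, with 12 windows in all, and none was used for Bhlhe40 and Per2. The windows were searched on both strands for the E-box CACGTG, the variant E-box CACGTT and the D-box TTATGTAA or TTATGCAA. The half-site AGGTCA, called the REV-ERB/ROR element here although its flank was not searched, and the cAMP response element TGACGTCA were searched too. The 4 windows with an E-box or a variant E-box are printed 5′ to 3′ on the strand of the gene, with these motifs in capitals. They belong to Bhlhe41 (chr6:145865371-145865670, minus strand), Per1 at the first of its starts (chr11:69098699-69098998, plus strand), Cry1 (chr10:85185005-85185304, minus strand) and Nr1d1 (chr11:98775328-98775627, minus strand).
Bhlhe41: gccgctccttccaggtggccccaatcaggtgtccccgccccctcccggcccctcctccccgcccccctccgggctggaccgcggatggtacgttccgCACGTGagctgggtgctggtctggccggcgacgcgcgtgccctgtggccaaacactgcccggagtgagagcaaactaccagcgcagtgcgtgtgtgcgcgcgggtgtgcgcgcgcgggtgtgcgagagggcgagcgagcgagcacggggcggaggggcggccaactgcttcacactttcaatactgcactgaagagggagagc
Per1: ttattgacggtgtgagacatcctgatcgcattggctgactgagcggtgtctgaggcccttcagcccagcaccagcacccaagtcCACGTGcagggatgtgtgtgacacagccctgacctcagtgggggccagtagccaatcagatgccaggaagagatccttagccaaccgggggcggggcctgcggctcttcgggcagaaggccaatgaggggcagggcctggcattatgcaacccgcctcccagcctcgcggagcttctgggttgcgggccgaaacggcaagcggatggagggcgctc
Cry1: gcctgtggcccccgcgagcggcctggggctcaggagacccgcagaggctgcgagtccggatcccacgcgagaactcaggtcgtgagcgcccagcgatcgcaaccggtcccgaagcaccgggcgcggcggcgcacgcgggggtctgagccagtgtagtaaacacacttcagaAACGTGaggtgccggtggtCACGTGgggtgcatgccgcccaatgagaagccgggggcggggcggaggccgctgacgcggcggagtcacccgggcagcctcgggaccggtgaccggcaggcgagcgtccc
Nr1d1: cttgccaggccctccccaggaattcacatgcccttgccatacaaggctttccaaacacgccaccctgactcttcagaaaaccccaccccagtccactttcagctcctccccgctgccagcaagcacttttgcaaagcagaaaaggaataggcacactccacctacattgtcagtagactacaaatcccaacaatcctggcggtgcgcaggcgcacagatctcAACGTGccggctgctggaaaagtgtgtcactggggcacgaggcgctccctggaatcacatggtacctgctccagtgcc

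The Bhlhe41 window held 1 E-box, whose first base lay at position -153 from the annotated start. The first Per1 window held 1 E-box at -166, with a D-box at -24 and a REV-ERB/ROR element at -137. The Cry1 window held an E-box at -60 and a variant E-box at -79, and the Nr1d1 window a variant E-box at -28. Thus 3 of the 12 windows had an E-box and 2 a variant E-box, whereas 7.15% of all 32851 RefSeq promoter windows of mouse genes held the E-box and 4.68% the variant. The REV-ERB/ROR element was in 4 of the 12 windows (of Per1, Nr1d2, Arntl and Clock) against 16.3% of all windows, and the D-box in 1 window against 1.66%. The cAMP response element was in 0 of the 12 windows and in 1.79% of all windows. No match was found in the Dbp window, and sequence outside the windows was not searched. These matches are letters in a window and not binding sites, and binding was not measured.

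**Figure D1:**
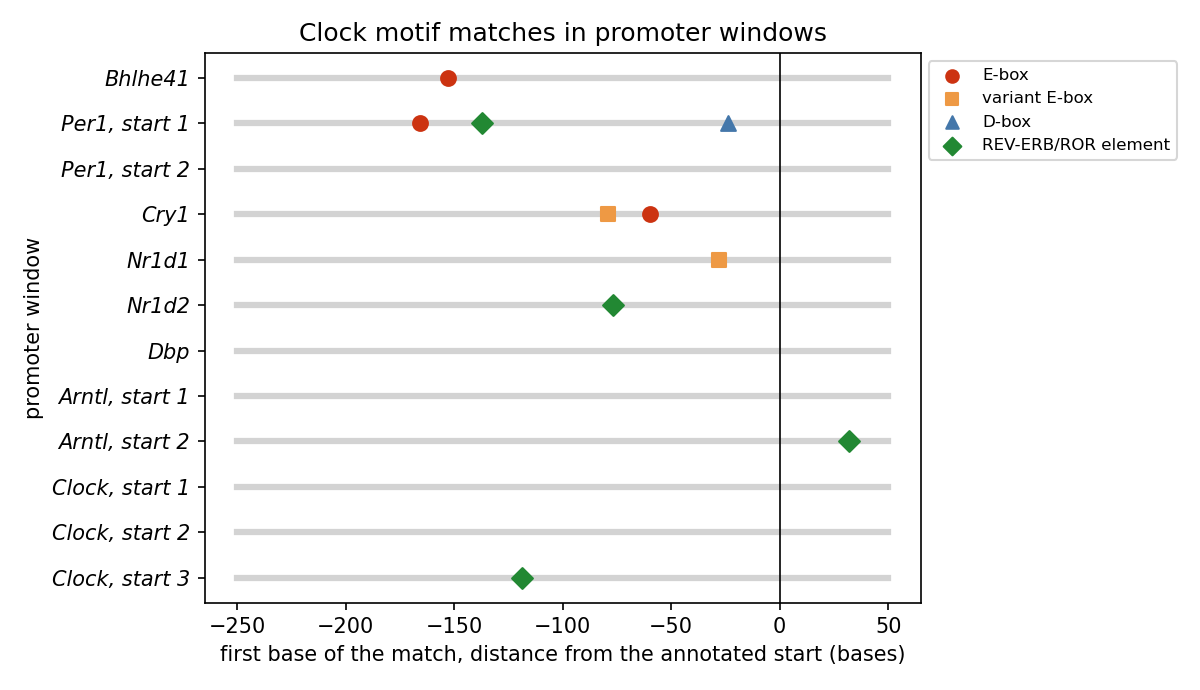
Matches of 4 clock motifs in the 12 promoter windows, by distance of the first base from the annotated start in bases (negative is upstream). Bhlhe41, the first start of Per1, and Cry1 held an E-box, and both Cry1 and Nr1d1 held a variant E-box.

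Bhlhe40 was the most abundant of the 10 genes in every group, and it was several-fold higher in ABCs. In FPKM, which scales the fragments of a gene to its transcript length and to the depth of the library, its levels were 16.3, 17.0 and 16.2 in FO B (Young), 25.5, 24.7 and 20.4 in FO B (Aged), and 112, 103 and 126 in ABCs (Aged). The 3 groups did not overlap, and the 3 ABC libraries were all above 100 FPKM. The group means were 16.5 ± 0.454, 23.5 ± 2.75 and 114 ± 11.4 FPKM (SD, n = 3), resting on 1272, 1837 and 8414 reads recovered from the FPKM steps. The mean of ABCs was 4.84 times that of FO B (Aged) and 6.88 times that of FO B (Young). On the scale of log2(FPKM + 1), where changes of low genes come out too small, Bhlhe40 differed by 2.23 ± 0.11 (SE) from FO B (Aged) and by 2.71 ± 0.09 from FO B (Young). These comparisons share the ABC libraries. Between the FO B groups, the aged mean was 1.42 times the young one, a log2 difference of 0.48 ± 0.09. Scaling to the upper quartile lowered that age difference to 0.35, while it moved the median of all genes by -0.12, so that relative to the median it stayed close to the value on the deposited scale. Among genes of at least 1 FPKM, Bhlhe40 stood between percentiles 51.0 and 52.2 in young FO B cells, between 57.5 and 63.5 in aged ones, and between 89.8 and 91.2 in ABCs.

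Bhlhe41 had the widest difference of the 10 genes between ABCs and FO B cells. Its levels were 1.24, 1.26 and 1.78 FPKM in FO B (Young), 1.43, 1.31 and 1.36 FPKM in FO B (Aged), and 27.8, 26.1 and 32.1 FPKM in ABCs. All 3 ABC libraries were above all 6 FO B libraries, and the FO B groups overlapped. The mean in ABCs, 28.7 ± 3.11 FPKM (SD, n = 3), was 21.0 times that in FO B (Aged), 1.37 ± 0.0621 FPKM, and 20.1 times that in FO B (Young), 1.43 ± 0.305 FPKM. The log2 differences were 3.64 ± 0.11 and 3.61 ± 0.13 (SE). With age in FO B cells the difference was -0.03 ± 0.16, against 0.48 for Bhlhe40. In FO B libraries Bhlhe41 lay between percentiles 2.19 and 6.69 of the genes of at least 1 FPKM, and in ABCs between 65.2 and 69.5.

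The ratio of both genes therefore differed between the populations. The Bhlhe40 level was 9.12 to 13.6 times the Bhlhe41 level in young FO B cells, 15.0 to 18.9 times in aged FO B cells, and 3.92 to 4.04 times in ABCs, with the narrowest spread in ABCs. The sum of both repressors over the sum of Arntl and Clock, the genes of the activator pair, lay at 0.879 to 1.05 in young FO B cells, at 1.05 to 1.54 in aged FO B cells and at 6.97 to 14.3 in ABCs. The highest of the ABC values came from replicate 3, in which Arntl was low. The other 8 genes together summed to 43.6 to 52.4 FPKM in young FO B cells, to 48.1 to 53.8 FPKM in aged FO B cells and to 40.2 to 46.9 FPKM in ABCs. In bulk RNA of sorted cells, more cells expressing a gene and more RNA of it per cell cannot be told apart.

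**Figure D2:**
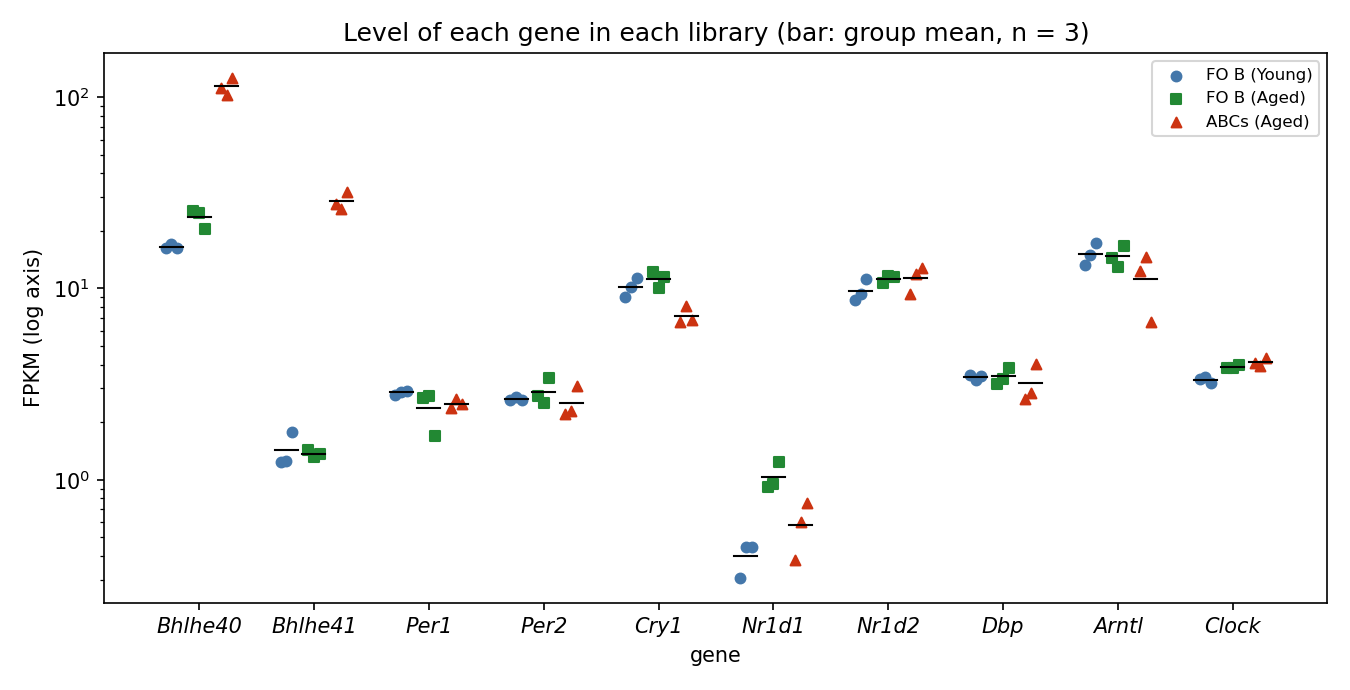
FPKM of the 10 genes (log axis) in the 9 libraries, with points for libraries, colours and shapes for the 3 groups, and a bar at each group mean (n = 3). Bhlhe40 and Bhlhe41 stand at 103 to 126 and 26.1 to 32.1 FPKM in ABCs, above every FO B library, while most of the other genes lie within a narrow band across the groups.

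Among the repressor genes Per1, Per2 and Cry1, Cry1 differed between ABCs and both FO B groups. Cry1, whose product blocks the CLOCK-ARNTL pair, measured 8.98, 10.1 and 11.3 FPKM in FO B (Young), 12.2, 10.1 and 11.4 FPKM in FO B (Aged), and 6.68, 8.05 and 6.85 FPKM in ABCs. Every ABC library was below every FO B library. The mean in ABCs, 7.20 ± 0.747 FPKM, was 0.640 times that in FO B (Aged), 11.2 ± 1.08 FPKM, with 518 and 844 reads in all. The log2 difference was -0.58 ± 0.12 (SE) against FO B (Aged) and -0.44 ± 0.12 against FO B (Young). Scaling to the upper quartile gave -0.41 against FO B (Aged), while it moved the median of all genes by 0.17.

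Per1 and Per2, which encode partners of the CRY proteins, were low and close between the groups. Per1 measured 2.79, 2.89 and 2.91 FPKM in FO B (Young), 2.69, 2.76 and 1.69 FPKM in FO B (Aged), and 2.36, 2.65 and 2.48 FPKM in ABCs. The aged FO B libraries and the ABC libraries each lay below the young ones, and FO B (Aged) replicate 3 was the lowest of the 9. The log2 difference with age in FO B cells was -0.21 ± 0.16 (SE), and without FO B (Aged) replicate 3 it was -0.05. ABCs differed from FO B (Aged) by 0.06 ± 0.17 in Per1, a value that turned to -0.06 under quantile normalization and to -0.09 without FO B (Aged) replicate 3. Per2 measured 2.62, 2.71 and 2.61 FPKM in FO B (Young), 2.73, 2.51 and 3.39 FPKM in FO B (Aged), and 2.21, 2.29 and 3.09 FPKM in ABCs. The groups overlapped in Per2, with log2 differences of -0.14 ± 0.16 between ABCs and FO B (Aged) and 0.08 ± 0.13 between the FO B groups.

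Nr1d1 and Nr1d2 encode REV-ERBα and REV-ERBβ, nuclear receptors that repress Arntl. Nr1d1 was at or near the limit of these libraries, with 7, 10 and 10 reads in FO B (Young), 19, 24 and 28 reads in FO B (Aged), and 8, 14 and 16 reads in ABCs. These counts corresponded to 0.308, 0.445 and 0.443 FPKM, 0.914, 0.949 and 1.23 FPKM, and 0.381, 0.604 and 0.757 FPKM. All 3 aged FO B libraries were above the other 6, with a mean 2.59 times that of FO B (Young) and 1.78 times that of ABCs. On the log2(FPKM + 1) scale the differences were 0.54 ± 0.08 (SE) with age and -0.37 ± 0.12 for ABCs against FO B (Aged), from a fit with no filter, since Nr1d1 was under a mean of 1 FPKM in each comparison. Nr1d2 was far more abundant, at 8.68, 9.34 and 11.2 FPKM in FO B (Young), 10.6, 11.6 and 11.5 FPKM in FO B (Aged), and 9.40, 11.9 and 12.8 FPKM in ABCs. Its groups overlapped, and ABCs and FO B (Aged) differed by 0.00 ± 0.12 on the log2 scale.

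Dbp, a PAR bZIP transcription factor and an output of the clock, was the most even of the genes between the FO B groups. It measured 3.53, 3.34 and 3.47 FPKM in FO B (Young), 3.19, 3.38 and 3.83 FPKM in FO B (Aged), and 2.66, 2.86 and 4.04 FPKM in ABCs. The groups overlapped, with 134, 137 and 119 reads in all. The ABC libraries had the widest spread, with replicate 3 above every FO B library and replicates 1 and 2 below them. The log2 difference was -0.11 ± 0.16 (SE) between ABCs and FO B (Aged), and it turned to 0.03 when values were scaled to the upper quartile.

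Arntl and Clock, which encode the activator pair, behaved differently from each other across libraries. Arntl measured 13.3, 14.9 and 17.3 FPKM in FO B (Young), 14.5, 13.0 and 16.7 FPKM in FO B (Aged), and 12.4, 14.6 and 6.69 FPKM in ABCs. ABC replicate 1 lay just under the FO B range and replicate 2 within it, and ABC replicate 3 was the lowest of the 9. The log2 difference between ABCs and FO B (Aged) was -0.42 ± 0.25 (SE) with all libraries and -0.11 without ABC replicate 3. Clock measured 3.37, 3.44 and 3.19 FPKM in FO B (Young), 3.82, 3.83 and 4.0 FPKM in FO B (Aged), and 4.10, 3.92 and 4.33 FPKM in ABCs. All young libraries were below all aged FO B libraries and all ABC libraries, although the step was small. The log2 differences of Clock were 0.17 ± 0.11 with age and 0.24 ± 0.11 for ABCs against FO B (Young), and the age difference fell to 0.07 under scaling to the upper quartile, with the median of all genes moved by -0.12. Between ABCs and FO B (Aged) it was 0.07 ± 0.11, and -0.02 under quantile normalization.

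**Figure D3:**
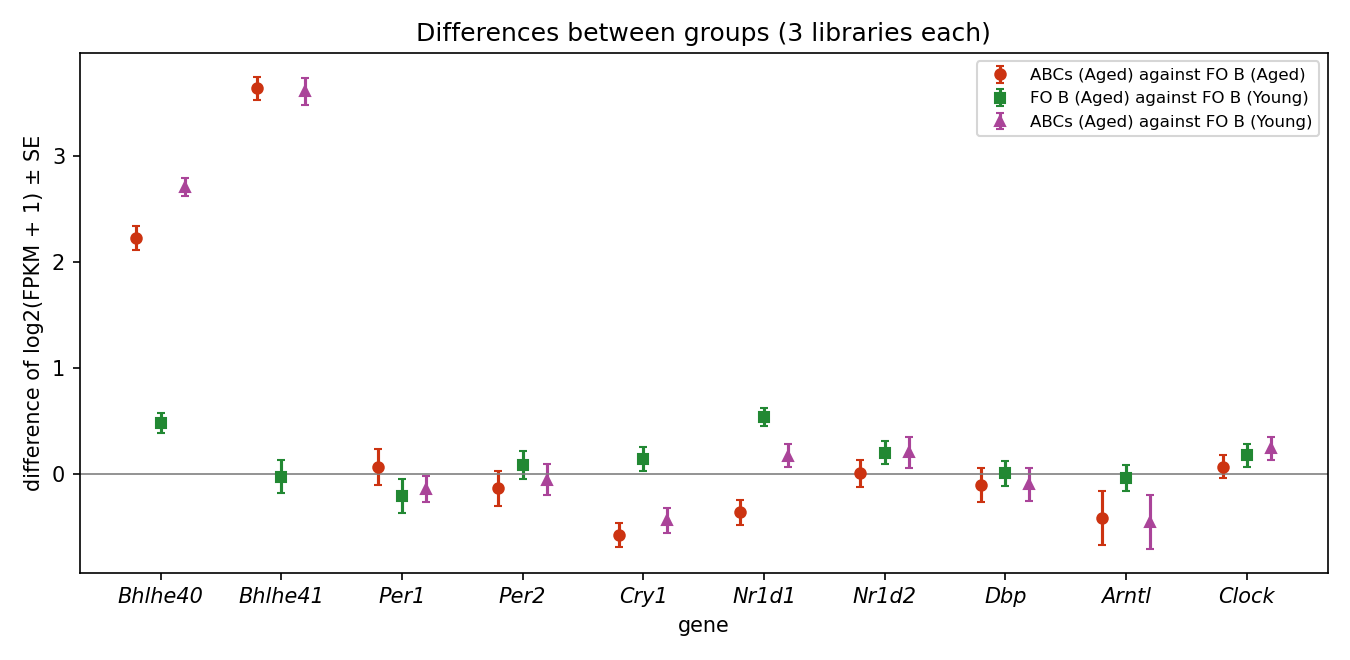
Differences of log2(FPKM + 1) between groups (points) with the standard error of the limma fit (bars) for the 10 genes in 3 comparisons of 3 against 3 libraries. Bhlhe40 and Bhlhe41 stand at 2.23 to 3.64 in both comparisons of ABCs, and Cry1 at -0.58 and -0.44. The comparisons share libraries.

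Read together, the 2 Bhlhe genes and the 8 clock genes differed in size of difference. Of the 9 genes that entered the fit of ABCs against FO B (Aged), 2 had an absolute log2 difference above 1 (Bhlhe40 and Bhlhe41), where 11% of all 10412 genes did. Between ABCs and FO B (Young) it was the same 2 genes, where 11.7% of all genes did, and with age 0 of the tested genes, where 0.879% did. The other 7 had a median absolute difference of 0.11 and a largest one of 0.58 in Cry1, and the median over all genes was 0.27. The libraries of ABCs and FO B (Aged) did not overlap for 3 of these 9 genes, where 52.6% of all genes that passed the filter did not. Between the FO B groups 3 of 9 did not overlap, against 18.6% of 10122 genes, and between ABCs and FO B (Young) 5 of 9, against 55.3% of 10438 genes. Nr1d1, below the filter, is not in these counts and did not overlap between FO B (Aged) and either other group. Since the list was made with these values known, nothing is read from those counts.

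The order of the levels, which FPKM allows because it is per length, was led by Bhlhe40 in all 3 groups. In FO B (Young) it was followed by Arntl, whose range overlapped with that of Bhlhe40, then by Cry1 and Nr1d2, which overlapped each other, and by Dbp and Clock, which also overlapped. Per1, Per2, Bhlhe41 and Nr1d1 closed the order, each clear of its neighbour. In FO B (Aged) the order was Bhlhe40, Arntl, Nr1d2, Cry1, Clock, Dbp, Per2, Per1, Bhlhe41 and Nr1d1, with overlap between Nr1d2 and Cry1 and between each neighbour from Clock to Per1. In ABCs Bhlhe41 moved from rank 9 to rank 2, above Nr1d2, Arntl and Cry1. Among the ABC ranks, Nr1d2, Arntl and Cry1 overlapped with their neighbours, as did Clock, Dbp, Per2 and Per1.

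Libraries of a group departed from their mean in different genes. On the log2(FPKM + 1) scale Arntl had a range of 1.02 within ABCs, the widest of the 10 genes in any group, followed by Per1 in FO B (Aged) at 0.48. Clock had ranges of 0.08, 0.05 and 0.11 in FO B (Young), FO B (Aged) and ABCs. In ABC replicate 3, Arntl was 0.61 below its group mean, while Dbp was 0.28 and Per2 0.22 above theirs. That library also had the lowest mean correlation with its group, at 0.961, against 0.969 and 0.972 for the other ABC libraries over 10375 genes. Without it, the differences between ABCs and FO B (Aged) were 2.15 for Bhlhe40, 3.56 for Bhlhe41 and -0.55 for Cry1.

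**Figure D4:**
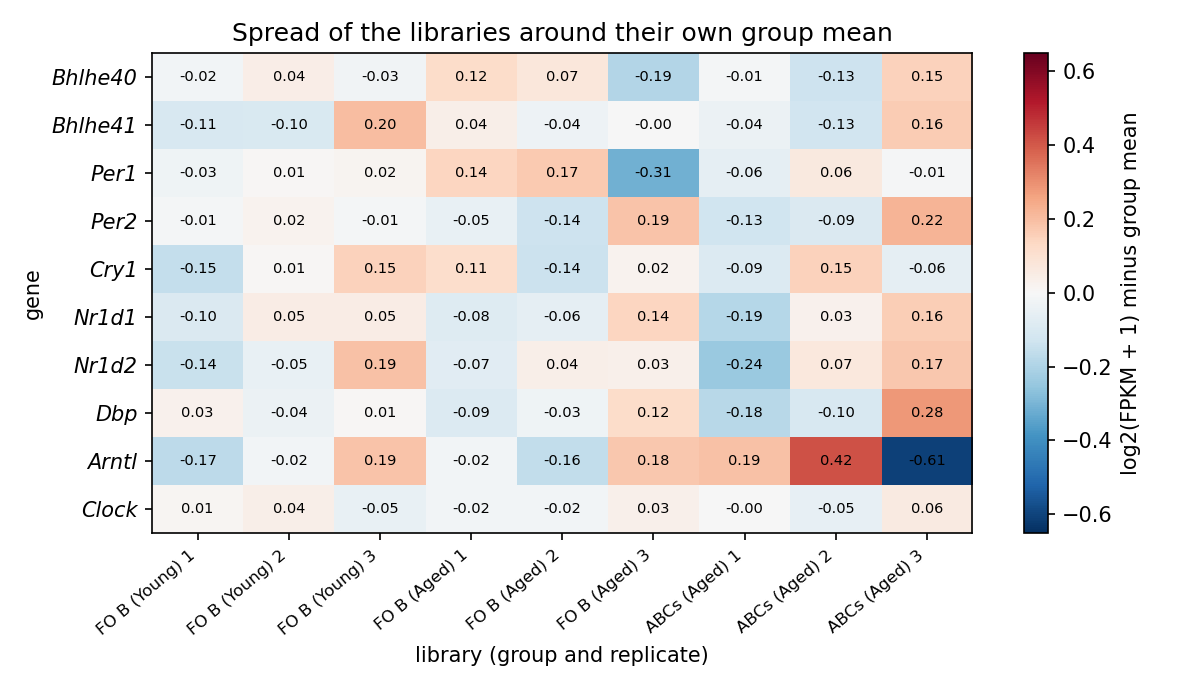
Deviation of each library from its own group mean in log2(FPKM + 1) for the 10 genes (rows) in the 9 libraries (columns), with red above and blue below the mean. Arntl in ABC replicate 3, at -0.61, is the largest deviation, and the row of Clock is the palest.

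Beyond the 10 genes, 25 further genes of the clock and its control were listed, again with earlier results of these data known. Counts of calls over this list are therefore descriptions. All 25 genes had a row in the files, Noct under its older symbol. In the comparison of ABCs with FO B (Aged), 17 reached the filter, which was a mean of 1 FPKM or more. By limma with Benjamini-Hochberg adjustment over all genes, 4 rose and 3 fell in ABCs at an FDR under 0.05, where 35.9% of all genes were called, 19.4% higher and 16.5% lower. The median log2 difference over these 17 genes was -0.00, as against -0.01 over all genes. The genes that rose were Nfil3, Wee1, Btrc and Per3, and Sirt1 and Timeless were among those that fell.

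Nfil3, which encodes a bZIP repressor that competes with DBP for the D-box, measured 1.52, 0.170 and 0.631 FPKM in FO B (Aged) and 4.79, 5.76 and 19.6 FPKM in ABCs. The ABC libraries all exceeded the FO B libraries, yet ABC replicate 3 stood far above replicates 1 and 2. The limma log2 difference was 2.46 ± 0.50 (SE), with an FDR of 0.00863, and without that replicate it was 1.89, with an FDR of 0.00328. With pseudocounts of 0.1 and 0.01 it was 3.60 and 3.86, and the ratio of the mean FPKM was 13.0. Wee1, a kinase that delays entry into mitosis and is a known clock output, measured 3.22, 2.80 and 2.66 FPKM in FO B (Aged) and 8.77, 7.49 and 9.11 FPKM in ABCs. The groups were apart by a log2 difference of 1.28 ± 0.12 in the limma fit, with an FDR of 0.000383. Btrc, an F-box protein of the ligase that degrades PER, rose from 6.53 ± 0.334 to 11.3 ± 1.27 FPKM (limma FDR 0.00289). In the FO B comparison Btrc was lower in aged cells, by -0.41 ± 0.10 on the log2 scale, with a limma FDR of 0.154.

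Per3, the third of the Period genes, was at 1.32 ± 0.282 FPKM in FO B (Aged) and 2.33 ± 0.173 FPKM in ABCs, with a limma FDR of 0.0356. Its call was lost whichever of the 6 libraries was left out, with FDRs from 0.0604 to 0.0983. Sirt1, a NAD-dependent deacetylase that acts on the CLOCK-ARNTL complex, measured 7.74, 8.41 and 6.02 FPKM in FO B (Aged) and 2.79, 2.71 and 3.10 FPKM in ABCs. It fell by 1.11 on the log2 scale (SE 0.14, limma FDR 0.00128). Timeless, which acts mainly in replication forks in mammals, fell from 3.28 ± 0.473 to 1.87 ± 0.234 FPKM, with a limma FDR of 0.0216. Leaving out FO B (Aged) replicate 1 or 2 or ABC replicate 1 raised the limma FDR of Timeless above 0.05, with values from 0.0606 to 0.0735, and leaving out ABC replicate 2 did so too, at 0.0590. Scaling to the upper quartile raised it to 0.0781.

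The rest of the tested genes of that list did not pass. Tef, a PAR bZIP factor like DBP, averaged 11.3 FPKM in ABCs against 8.65 FPKM in aged FO B cells, with a limma FDR of 0.0548, and Cry2 averaged 5.38 and 6.97 FPKM, with a limma FDR of 0.0884. Csnk1d, a kinase of the PER proteins, was among the most abundant, with means of 50.9 ± 1.56 FPKM (ABCs) and 51.3 ± 1.52 FPKM (aged FO B cells). Npas2, Arntl2 and Hlf, alternative partners or tissue-restricted members of the clock, did not exceed 0.0517 FPKM in any library. Rora, an activator that competes with the REV-ERB proteins, measured 0.205, 0.186 and 0.136 FPKM in ABCs and at most 0.0871 FPKM in an FO B library, and was below the filter.

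Against FO B (Young), 17 of the 25 genes were tested, 3 rose (Nfil3, Wee1 and Tef) and 3 fell (Timeless and Noct among them) in ABCs by limma with Benjamini-Hochberg adjustment. Of all genes 40.7% were called, 21.6% higher and 19.1% lower, and these tests use the same ABC libraries as those against FO B (Aged). The log2 differences were 2.37 ± 0.45 for Nfil3, 1.12 ± 0.17 for Wee1 and -0.83 ± 0.13 for Timeless, with limma FDRs of 0.00537, 0.00215 and 0.00243. Btrc, Sirt1 and Per3, called against FO B (Aged), did not pass against FO B (Young). Their log2 differences were 0.29 ± 0.11, -0.56 ± 0.23 and 0.38 ± 0.15, with limma FDRs of 0.0781, 0.0937 and 0.0800. Tef (limma FDR 0.0419) and Noct, a member of the deadenylase family with rhythmic expression (limma FDR 0.0461), were near the threshold. Leaving out 1 library raised the FDR of Tef to as much as 0.133 and that of Noct to as much as 0.145, both without FO B (Young) replicate 1.

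With age in FO B cells, 0 of the 16 tested genes of that list passed a limma FDR of 0.05, where 0.464% of all genes did, 0.346% higher and 0.119% lower with age. At an unadjusted p under 0.05 the fit named Btrc (limma p 0.00361) and Sirt1 (limma p 0.0444), that is 2 of 16, where 1298 of all 10122 genes had such a p, so this share is close to that of all genes. Sirt1 measured 3.11, 4.71 and 6.95 FPKM in FO B (Young), a spread that overlapped with FO B (Aged).

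**Figure D5:**
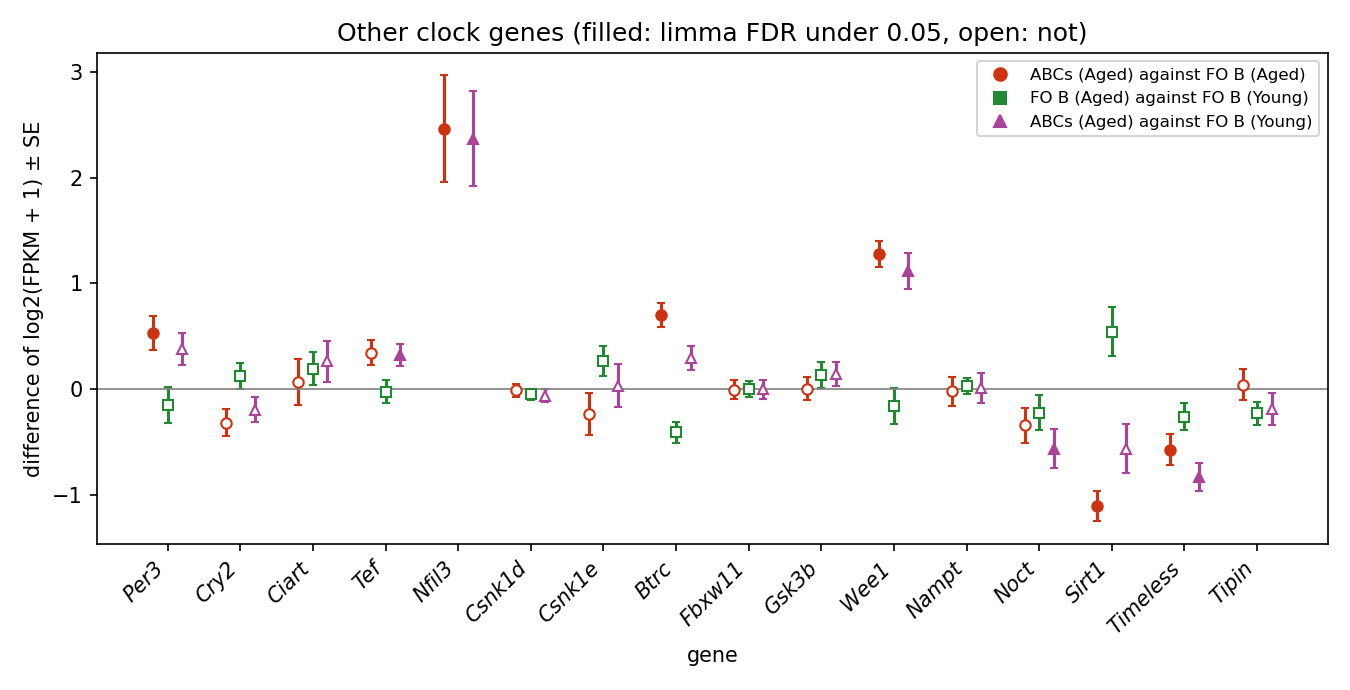
Differences of log2(FPKM + 1) with standard errors for further clock genes that passed the filter, in the 3 comparisons, with filled symbols for a limma FDR under 0.05. Nfil3 and Wee1 lie above 1 in both comparisons of ABCs, and Sirt1 lies at -1.11 against FO B (Aged).

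The genes whose pattern over the 9 libraries was most like that of Bhlhe40, by the root mean square difference of gene-centred log2(FPKM + 1) over 10375 genes, were Dusp10 (0.15), Fcgr2b (0.15), Naip5 (0.18), Hmgn3 (0.19) and Pld4 (0.19). Fcgr2b, the inhibitory Fc receptor of B cells, had means of 124, 173 and 782 FPKM in FO B (Young), FO B (Aged) and ABCs. For Bhlhe41 they were Tnfsf13b (0.12), Dnm3 (0.16), Sspn (0.17), Prf1 (0.21) and Chn2 (0.22), and Prf1, which encodes perforin, had means of 1.15, 0.816 and 29.2 FPKM. With a pseudocount of 0.1 in place of 1, 4 of the 5 nearest genes of Bhlhe40 and 0 of the 5 of Bhlhe41 were the same, so the second list depends on how low values are treated. Bhlhe41 was the gene at rank 368 from Bhlhe40, and Bhlhe40 at rank 104 from Bhlhe41, and with the pseudocount of 0.1 these ranks were 872 and 160.

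Some lists of markers of other B cell states were higher in ABCs, as Bhlhe40 and Bhlhe41 were, and others were not. The lists were chosen with earlier results of these data known, so their counts are descriptions. Of all genes tested against FO B (Aged), 19.4% were called higher and 16.5% lower in ABCs. Of the 6 B-1 cell markers listed (Cd5, Spn, Zbtb32, Ctla4, Plscr1 and Cd9), 6 rose in ABCs against FO B (Aged) by limma at an FDR under 0.05, and their summed level was 18.8 to 22.9 FPKM in FO B (Aged) and 288 to 346 FPKM in ABCs. Cd5 itself was low in both, at 0.265 to 0.435 FPKM in FO B (Aged) and 0.656 to 2.86 FPKM in ABCs, whereas Spn, which encodes the CD43 that both gates excluded, was at 54.1 to 86.7 FPKM in ABCs. Of 5 memory B cell markers, Zbtb32 among them again, 4 rose and the sum was 193 to 217 and 311 to 355 FPKM. Ccr6, which was not called, averaged 195 FPKM in FO B (Aged), most of that sum, and 122 FPKM in ABCs. Of 5 plasma cell markers 3 rose, with sums of 129 to 148 and 191 to 225 FPKM. Of 9 immediate-early genes, which dissociation and sorting can also induce, 7 rose, with sums of 682 to 857 FPKM in FO B (Aged) and 1375 to 2343 FPKM in ABCs. In FO B (Young) that sum was 487 to 542 FPKM, and 2 of the 8 tested immediate-early genes rose with age, where 0.346% of all genes did. Of the 5 marginal zone markers 2 rose and 2 fell, and of the 2 germinal center markers tested 1 fell. Of the 5 glucocorticoid-responsive genes, 3 were tested and 0 passed the limma FDR against FO B (Aged). The part of these markers in the levels of the Bhlhe and clock genes was not tested.

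Markers of other cells were near 0 for the most part. The 7 T cell markers summed to at most 1.05 FPKM in FO B cells and to 5.09 to 38.3 FPKM in ABCs, nearly all from Cd3g, with Cd3e at 0 to 0.0996 FPKM. The 6 macrophage and monocyte markers summed to 182 to 225 FPKM in ABCs against 5.90 to 11.5 FPKM in aged FO B cells, with Adgre1 making up most of it and Csf1r at 0.301 to 0.831 FPKM in ABCs. The 5 NK cell markers summed to at most 0.797 FPKM and the 3 neutrophil markers to at most 21.3 FPKM in FO B (Aged) and 0.359 FPKM in ABCs. The part of these cells in the results was not tested.

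The libraries as a whole were alike in depth. About 7400000 to 9000000 mapped reads per library, estimated from the FPKM step of 724 genes with a single annotated transcript, and 10032 to 10445 genes of at least 1 FPKM were found. Of the B lineage markers, Cd79a, a subunit of the B cell receptor complex, ranged from 2462 to 3562 FPKM in ABCs and from 2991 to 3390 FPKM in FO B cells. The 4 ABC markers, Itgam and Itgax for the gated CD11b and CD11c and the regulators Tbx21 and Zeb2, which were not gated, summed to 320 to 336 FPKM in ABCs against 6.09 to 13.6 FPKM in FO B cells, and Fcer2a, which encodes CD23, was between 0.463 and 6.95 FPKM in ABCs and between 697 and 1036 FPKM in FO B cells. Cr2, which encodes the CD21 on which both gates were set as low, was not alike, at 0.745 to 8.39 FPKM in ABCs and 127 to 166 FPKM in FO B cells. Of all genes tested, 3739 of 10412 were called between ABCs and FO B (Aged), of which 54.0% were higher, and 80.4% were higher when values were scaled to the upper quartile, 44.9% under quantile normalization and 49.2% after scaling to TPM. Between the FO B groups 47 of 10122 were called, 74.5% of them higher with age, and 47.1%, 71.1% and 65.1% under these scalings. Between ABCs and FO B (Young) the 4248 called genes were higher in 53.0%, and in 66.6%, 44.1% and 47.2% under these scalings.

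All 10 genes are protein-coding in GENCODE M21 on GRCm38. Bhlhe40 lies at chr6:108660629-108666925 on the plus strand and Bhlhe41 at chr6:145858243-145865558 on the minus strand, each with at most 5 exons. Cry1 lies at chr10:85131700-85185064 on the minus strand and Arntl at chr7:113207465-113314126 on the plus strand. Exons of 5 of the genes overlap exons of a gene on the other strand, and the sources used here do not say whether reads were counted by strand, so reads of the pairs cannot be told apart. The partner of Bhlhe40, 0610040F04Rik, was at 0.271 to 0.603 FPKM, that of Nr1d1, Thra, at 0.0604 to 1.06 FPKM, and that of Dbp, Sphk2, at 10.5 to 14.7 FPKM, above Dbp itself. Partners of Bhlhe41 and Arntl, Gm43909 and Gm45355, were not analysed here.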

How the data were processed

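The 9 libraries were made by the authors from RNA of sorted B cells with the SMART-Seq HT and Nextera XT kits. The submitters' processing notes name TopHat2 2.1.1, Bowtie2 2.2.8, SAMtools 0.1.18, Cuffdiff 2.2.1 and mm10. The study's methods name other versions of the aligners and SAMtools, and Cufflinks in place of Cuffdiff, so which of them set the FPKM scaling is not settled. The gene annotation and the strand setting are not given in the sources used here. The authors deposited FPKM per gene symbol and library, which were not counts, so no count model was fitted. Depth per library was about 7400000 to 9000000 reads, approximated from whole multiples of 1 read in low FPKM values (tolerance 0.02 reads). Whole reads were recovered for Bhlhe40, Per2, Cry1, Nr1d1, Nr1d2 and Dbp, which gives their counting precision, and not for Bhlhe41, Per1, Arntl and Clock.

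Samples were grouped by their labels into 3 groups of 3, and since the labels do not say that they are separate mice, p-values measure only the spread between these samples. Genes whose mean reached 1 FPKM entered, as log2(FPKM + 1), a linear model (limma 3.58.1, R 4.3.3, eBayes with trend) over the 6 libraries of each comparison, with Benjamini-Hochberg adjustment over all genes and calls at an FDR under 0.05. The code was tested on simulated data. The 10 genes and the lists of further clock genes and markers were chosen with earlier results of these data known. The genes named were those 10, the further clock genes that passed in a comparison or are given as not passing, the 5 nearest genes of Bhlhe40 and of Bhlhe41, and marker genes of the lists described. Some genes of these lists are not reported here, Trac and Ly6g were not used here, and sums of the marginal zone and germinal center lists are in the closing section. Alternatives were pseudocounts of 0.1 and 0.01, other filters, scalings and models, a replicate block, stricter thresholds and leaving out each library. Python 3.11.15, numpy 2.4.6, pandas 2.3.3 and matplotlib 3.10.9 were used, with RefSeq promoter windows and GENCODE M21 positions. Protein sequences were not used here.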

Additional observations from a re-analysis of the deposited data

How the results depend on the processing

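The differences of Bhlhe40 and Bhlhe41 between ABCs and FO B (Aged) kept their direction under all 13 alternatives, from 2.13 to 2.41 and from 3.53 to 4.38 on the log2 scale, and that of Cry1 ranged from -0.65 to -0.41. The fit of all 9 libraries and the replicate block could not move these differences, since groups of equal size and matched replicate numbers leave them unchanged. For Clock the difference of 0.07 between ABCs and FO B (Aged) turned to -0.024 under quantile normalization. The median of all genes moved by 0.17 (ABCs against FO B (Aged)) and by -0.12 (age) when values were scaled to the upper quartile, and by at most 0.05 in size under the other scalings. Calls of Btrc, Sirt1 and Wee1 against FO B (Aged) held in all 16 alternatives, and Nfil3 was lost only with no filter on low values (limma FDR 0.0872 and, against FO B (Young), 0.0639).

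Of the counts of further clock genes called, 7 against FO B (Aged) and 6 against FO B (Young) became 4 and 3 with no filter on low values, and 1 and 1 at an FDR under 0.01 with an absolute log2 difference above 2.3. Leaving out 1 library gave 4 to 6 and 4 to 5 of them, and 0 with age. The counts of all genes called became 200, 2 and 230 at those thresholds. With age, 47 became 30 with eBayes without trend and 20 with all 9 libraries, and 19 to 69 when 1 library was left out (19 when it was FO B (Aged) replicate 1, 21 and 23 when it was replicate 1 or 2 of the young group), and 44.7% of the 38 genes called with no filter were higher. Against FO B (Young), scaling to the upper quartile gave 2774 genes. Leaving out 1 library gave 2550 to 3643 genes against FO B (Aged) and 3057 to 4163 against FO B (Young).

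Replicate numbers are shared between groups, and the sources used here do not say whether same-numbered libraries were paired. Deviations of same-numbered libraries correlated by 0.08, -0.02 and 0.11 for ABCs and FO B (Aged), and differently numbered ones by -0.11 to 0.06. For the FO B groups these values were -0.05, 0.14 and -0.09, and -0.11 to 0.16. For ABCs and FO B (Young) they were 0.03, 0.01 and -0.04, and -0.06 to 0.03. With 3 libraries per group such values cannot decide whether samples were paired, and the main fits included no pairing. With a replicate block, 3448, 37 and 3508 genes and 5, 0 and 4 of the further clock genes were called. The calls lost were Per3 (limma FDR 0.0675) and Timeless (0.0552) against FO B (Aged), and Tef (0.0563) and Noct (0.0522) against FO B (Young). The recovered reads limit Nr1d1 most, with 27, 71 and 38 reads per group.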

Other observations

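The summed levels of the marginal zone and germinal center B cell markers were 540 to 559 FPKM in FO B (Aged) and 940 to 1171 FPKM in ABCs for the marginal zone list, and 28.1 to 39.2 and 9.30 to 13.0 FPKM for the germinal center list. In these libraries Bcl6, which represses terminal differentiation in germinal centers, made up most of the second sum. Mzb1, a chaperone of immunoglobulin assembly that plasma cells also express, made up most of the first, with means of 316 FPKM in FO B (Aged) and 944 FPKM in ABCs. It rose by limma at an FDR under 0.05, as did S1pr3, while Cr2 (151 and 4.69 FPKM) and Cd1d1 (43.7 and 25.8 FPKM) fell.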
